A study of Laxus oneistus with 16 samples.

Results

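The *nduo-4*-like transcript (TRINITY_DN93105_c1_g2_i1_9dedup) of the marine nematode *Laxus oneistus* was followed through 16 whole-worm RNA-seq libraries. It was chosen by its locus tag and is 1 of the 27984 transcripts counted in each library. Its name comes from Data S2, the study's list of the 100 most expressed genes, which places it under energy generation (complex I) and gives as its best protein match NADH dehydrogenase subunit 4 of the lamprey *Ichthyomyzon unicuspis*. No sequence, length or genome position of the transcript was used here, so this identity was not checked, and no other transcript of its Trinity cluster (DN93105) was counted. Each library was made from a batch of 50 field-collected adult worms, pooled together with their bacterial coat, *Candidatus* Thiosymbion oneisti, and kept for 24 h in the dark in filtered seawater. In 3 AS libraries the vials stood in a glove bag flushed with nitrogen and held 11 µM added sulfide (anoxic sulfidic). In 4 A libraries the vials stood in the same kind of bag without sulfide (anoxic). In 3 H libraries open vials were left in contact with air (hypoxic), and in 6 O libraries open vials were submerged in an aquarium bubbled with air (high oxygen). The labels do not tie a library to one of the several field trips, so trip and condition cannot be told apart. Fewer mitochondria-rich cells and less of the transcript per cell cannot be told apart either in RNA of whole worms.

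Complex I takes electrons from NADH, passes them to a quinone and pumps protons across the inner mitochondrial membrane, thereby feeding the ATP synthase. ND4 is one of the antiporter-like subunits of its membrane arm and is encoded in the mitochondrial genome of animals. In nematodes that can live without oxygen, complex I may keep working with rhodoquinone as electron carrier and fumarate as final acceptor, whereas complexes III and IV need oxygen downstream. The comparison of the 4 conditions therefore asks whether a complex I transcript differs in level between worms with and without oxygen.

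Libraries are named by condition and replicate number. Library totals ranged from 9032239 to 18627712 counts. After thinning all libraries to the smallest total, 5 of them (A3, A5, O2, O3 and O5) held 23575 to 25980 transcripts, against 17581 to 20801 in the other 11. The transcripts found almost exclusively in these 5 libraries numbered 5499 and took 0.569% to 1.45% of their counts. All 5 nematode markers examined had counts in all 16 libraries, namely the muscle genes *unc-54*, *unc-15* and *act-1*, the tubulin *tbb-4* and the yolk protein *vit-6*. No 2 libraries of a condition agreed within sampling noise.

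*nduo-4*-like drew more counts than any other transcript in 9 of the 16 libraries and ranked 5 at the lowest. On the CPM scale (edgeR's counts normalized to library size with TMM factors, not corrected for transcript length), its level was 13615, 8685 and 14205 in AS1, AS2 and AS3. It was 7722, 6682, 10917 and 17599 CPM in A1, A2, A3 and A5. In H1, H2 and H3 it was 11842, 8666 and 11354 CPM. In O1 to O6 it was 6367, 7918, 8840, 15469, 15736 and 19550 CPM. The 3 H libraries lay closest together, whereas both the lowest and the highest of all libraries were O, and the ranges of all 4 conditions overlapped. The mean level was 12168 ± 3031 CPM in AS (SD, n = 3), 10730 ± 4921 in A (n = 4), 10620 ± 1710 in H (n = 3) and 12313 ± 5306 in O (n = 6). In descending order the means were thus O, AS, A and H, and no neighbours in this order differed by more than the SD of either.

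**Figure D1:**
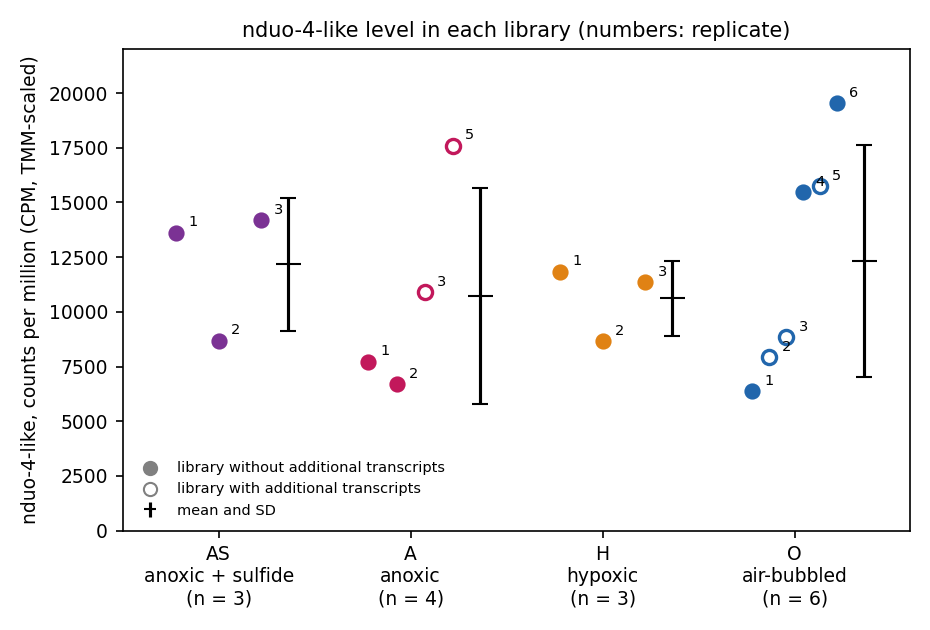
Level of the *nduo-4*-like transcript in each library, in CPM, by condition. Points are libraries with their replicate number, open points are the 5 libraries with additional transcripts, and bars are the mean and SD; the 4 conditions overlap, and the O libraries extend from 6367 to 19550 CPM.

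As a share of all counts, *nduo-4*-like made up 1.29%, 0.881% and 1.38% of AS1, AS2 and AS3. The share was 0.786%, 0.699%, 1.102% and 1.68% in A1, A2, A3 and A5. It was 1.07%, 0.880% and 1.13% in H1, H2 and H3. It was 0.618%, 0.826%, 0.910%, 1.57%, 1.65% and 1.92% in O1 to O6. The highest library, O6, thus held 3.10 times the share of the lowest, O1. These shares rest on 115154 to 270966 counts per library, so that the widest exact (Clopper-Pearson) 95% interval spanned 0.0162 percentage points. Counting error was therefore far below the spread between libraries, although the intervals cover counting error only. The expected counts had decimals in all 16 libraries, which means that some of its reads were divided among several transcripts by the counting program.

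Over all libraries the level of *nduo-4*-like averaged 11573 ± 4063 CPM (SD, n = 16), a coefficient of variation of 35.1%. Among the 100 transcripts of Data S2 this coefficient ranged from 10.2% to 77.9% with a median of 26.5%, and that of *nduo-4*-like was the 24th highest. Conditions accounted for 3.59% of the variance of its log2 CPM, and differences between libraries of one condition for the rest. The next in mean level, before any length correction, was TRINITY_DN95867_c2_g1_i1_9dedup, which has no similarity to known proteins and averaged 8959 ± 3251 CPM. *vit-6*, a vitellogenin that carries yolk lipids, averaged 7578 ± 3800 CPM, and *unc-15*, the paramyosin of thick muscle filaments, 6540 ± 918 CPM. *nduo-4*-like ranked first in 9 libraries, TRINITY_DN95867_c2_g1_i1_9dedup in 6, *vit-6* in 1 and *unc-15* in 0.

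*nduo-4*-like was called in none of the comparisons between conditions, where a call needed an FDR no higher than 0.05 together with a 1.5-fold change. Between the AS and H worms the log2 fold change was 0.18 with a standard error of 0.33, and the adjusted p of edgeR's quasi-likelihood test was 0.805. The 95% interval of this change, 0.691-fold to 1.86-fold, includes both no difference and changes beyond 1.5-fold. In the same comparison 343 of 17324 tested transcripts (1.98%) were called, and 71.9% of all transcripts had a larger absolute log2 fold change than *nduo-4*-like.

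Between A and H worms the log2 fold change was 0.02 ± 0.31 (SE), with an interval from 0.637-fold to 1.61-fold and an adjusted p of 0.996 by edgeR, where 0.104% of transcripts were called. This near-zero change depended on which A libraries were used. A3 and A5, at 10917 and 17599 CPM, were among the 5 libraries with additional transcripts, whereas A1 and A2, at 7722 and 6682 CPM, lay below all 3 H libraries. With only the AS, A and H libraries without additional transcripts, the A-H log2 fold change was -0.57 (edgeR, unadjusted p = 0.050, adjusted p = 0.900). Whether the additional transcripts have a part in the level of *nduo-4*-like was not tested. Between AS and A worms the log2 fold change was 0.16 ± 0.31 (SE), with an interval of 0.706-fold to 1.78-fold and an adjusted p of 0.858 by edgeR. With only the AS, A and H libraries without additional transcripts it was 0.75 (edgeR, unadjusted p = 0.0139, adjusted p = 0.155). That reduced fit called 104 of 16966 transcripts between AS and A. In the main AS-A comparison, with all AS, A and H libraries, edgeR called no transcript at all (0.0%). There 2358 of 17324 had an unadjusted p under 0.05, and DESeq2 called 442.

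The comparisons with the O worms gave a similar picture. The AS-O log2 fold change was -0.02 ± 0.35 (SE), with an interval from 0.592-fold to 1.65-fold and an adjusted p of 0.987 by edgeR, beside 0.571% of transcripts called. The A-O change was -0.20 ± 0.32, with an interval from 0.544-fold to 1.39-fold and an adjusted p of 0.982, beside 0.131% called. Without the 5 libraries with additional transcripts, A-O was -0.94 (edgeR, unadjusted p = 0.0307, adjusted p = 0.856). The H-O change was -0.21 ± 0.35, with an interval from 0.514-fold to 1.45-fold and an adjusted p of 0.845. Here edgeR called 0.0% of transcripts, with 2472 of 19093 at an unadjusted p under 0.05, and DESeq2 called 127.

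Taking worms without oxygen (AS and A) together against those with oxygen (H and O), the log2 fold change was -0.00 ± 0.26 (SE). Its 95% interval, from 0.685-fold to 1.46-fold, was the narrowest of the 7 and lay within 1.5-fold on both sides. In this comparison 0.665% of transcripts were called. The estimate near 0 depended on the libraries used. With only the 11 libraries without additional transcripts it was -0.38 ± 0.26 (SE, edgeR, unadjusted p = 0.163, adjusted p = 0.817). A test for any difference among the 4 conditions gave F = 0.214 and an adjusted p of 0.956 (edgeR), while 0.629% of transcripts were called.

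**Figure D2:**
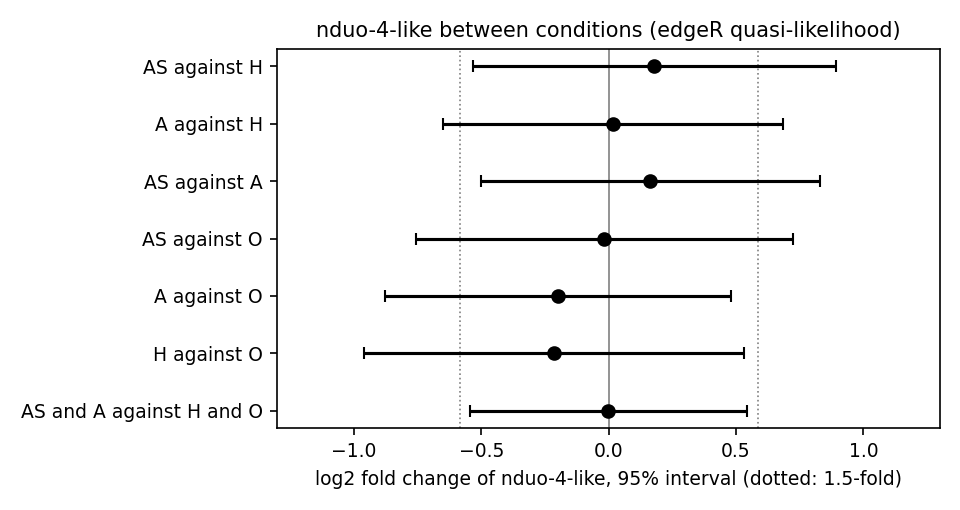
log2 fold change of *nduo-4*-like in the 7 comparisons, with 95% intervals from edgeR's quasi-likelihood fit; dotted lines mark 1.5-fold in either direction. All 7 intervals include 0, and the one of AS and A against H and O, from 0.685-fold to 1.46-fold, is the narrowest.

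Exact permutation tests of the mean log2 CPM, which need no model across transcripts, gave two-sided p-values between 0.5 and 1 for the 7 comparisons, and each adjusted value was 1. The smallest p they allow is 0.1 for AS against H and 0.0571 for A against H and for AS against A, so these 3 cannot reach 0.05. For AS against O and for H against O the smallest p is 0.0238, for A against O it is 0.00952, and for the 7 libraries without oxygen against the 9 with oxygen it is 0.000175.

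*ctc-1* (TRINITY_DN95486_c1_g1_i1_9dedup) encodes cytochrome c oxidase subunit I, the core of complex IV that passes electrons to oxygen, and is likewise encoded in the mitochondrial genome of animals. Its match in Data S2 is to *L. oneistus* itself. It stood at 925, 623 and 1029 CPM in AS1 to AS3 and at 768, 539, 837 and 1270 CPM in A1, A2, A3 and A5. It was 1294, 918 and 891 CPM in H1 to H3, and 734, 641, 670, 811, 785 and 1064 CPM in O1 to O6. None of the comparisons called *ctc-1* either; its log2 fold change was -0.28 ± 0.29 (SE) between AS and H and 0.40 ± 0.24 between H and O, with adjusted p-values of 0.627 and 0.501 by edgeR.

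The ratio of *nduo-4*-like to *ctc-1* counts within a library is not changed by the scaling of that library. There were 14.7, 13.9 and 13.8 *nduo-4*-like counts per *ctc-1* count in AS1 to AS3. The ratio was 10.1, 12.4, 13.0 and 13.9 in A1, A2, A3 and A5. It was 9.15, 9.44 and 12.7 in H1 to H3, and 8.68, 12.4, 13.2, 19.1, 20.0 and 18.4 in O1 to O6. Every AS library thus exceeded every H library, and O4, O5 and O6 were above every other library. O4, O5 and O6 also had the smallest totals of all libraries, and O1, with the largest total, had the lowest ratio. The part of library size in the ratio was not tested. The AS ratios averaged 14.2 ± 0.494 (SD, n = 3) and the H ratios 10.4 ± 1.99 (n = 3). On the log2 scale they differed by 0.45, with an exact two-sided permutation p of 0.1, the smallest that 3 against 3 can give, and an adjusted p of 0.375 over the 7 comparisons. The ratios to *ctc-1* of AS and H did not overlap for 21.7% of all tested transcripts, so that a separation of this kind was common in these libraries.

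The A ratios averaged 12.3 ± 1.63 (SD, n = 4), and the log2 difference was 0.25 for A minus H and 0.21 for AS minus A, with exact permutation p-values of 0.171 and 0.114. The O ratios averaged 15.3 ± 4.54 (SD, n = 6) and covered the whole range of the other conditions. The log2 difference from O was -0.05 for AS, -0.26 for A and -0.51 for H, and none of these had an exact permutation p under 0.214. For the libraries without oxygen against those with oxygen it was -0.00 (exact permutation p = 0.985). No adjusted p of the 7 ratio comparisons was under 0.375.

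**Figure D3:**
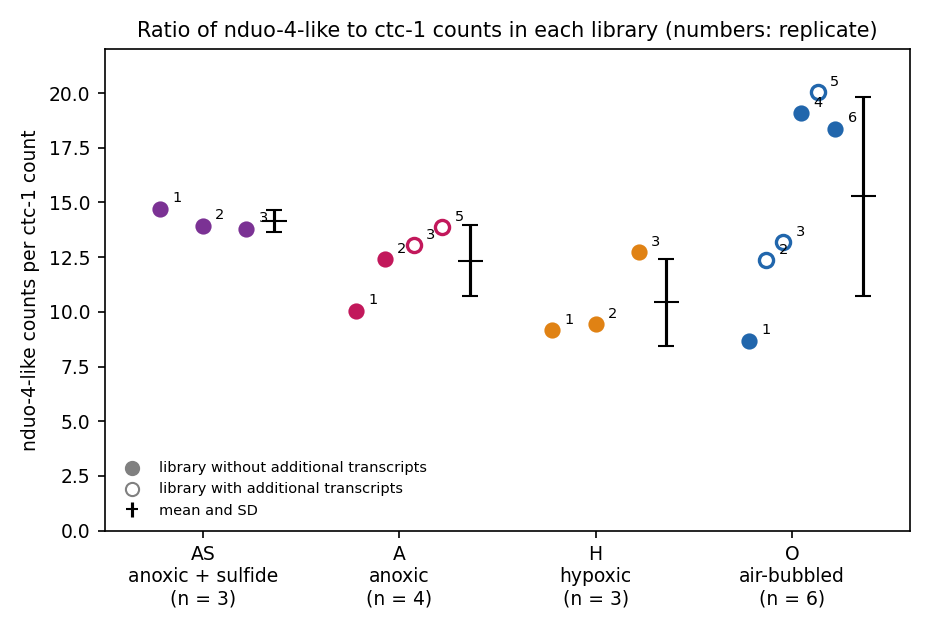
Counts of *nduo-4*-like per count of *ctc-1* within each library, by condition, with replicate numbers; open points are libraries with additional transcripts and bars are the mean and SD. The AS libraries, at 13.8 to 14.7, sit above the H libraries, at 9.15 to 12.7, and O4, O5 and O6, at 18.4 to 20.0, lie above all others.

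Other complex I transcripts could be named only as far as the used part of the study's annotation goes, and the 3 given here were barely counted. The paper reports the complex I genes *lpd-5* and *nuo-2* as higher in AS than in H worms. Neither gene was followed here. The 3 barely counted transcripts were a second one annotated as ND4, one with the domain of NDUFS5 (a small accessory subunit) and *nuoE*. The last is a name of the subunit that holds an iron-sulfur cluster in the NADH-binding arm. These 3 transcripts had 162, 109 and 106 counts over all 16 libraries, against 2561651 for *nduo-4*-like. The second ND4 transcript had all of its 162 counts in O2, one of the libraries with additional transcripts. Counts of *nuoE* were found only in the 3 H libraries, 5 to 57 in each, and it did not pass the filter for testing. Whether complex I subunits move together could therefore not be examined with these 3.

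The wider list held 22 transcripts besides *nduo-4*-like, from complexes I, III and IV, the ATP synthase, the ADP/ATP carrier, the TCA cycle, mitochondrial chaperones and RNA handling, and the oxygen-binding globins. Of these, 17 could be tested among AS, A and H, and 18 with O. edgeR called 0 of them in any of the 7 comparisons. An unadjusted p under 0.05 was reached by 5 of 17 between AS and H, beside 20.7% of all tested transcripts, by 0 between A and H, beside 8.14%, and by 2 between AS and A, beside 13.6%. With O, it was reached by 3 of 18 for AS-O (16.6% of all), 1 for A-O (7.58%), 3 for H-O (12.9%) and 4 for no oxygen against oxygen (12.4%). Their median log2 fold change was 0.16 between AS and H, beside -0.02 for all tested transcripts, and 0.11 for no oxygen against oxygen, beside 0.01. DESeq2, which called 7.5% of all transcripts between AS and H, called 3 of the 17 there, namely T02H6.11, a *glb-1*-like globin and the *glb-14*-like globin. It called the *glb-14*-like globin between AS and A (2.55% of all called) and an *hsp-60* chaperone between AS and O (2.97%), and *cts-1* (citrate synthase), an *hsp-60* and the *glb-14*-like globin for any difference among the 4 conditions (5.08%). It called none of the list for A-H (0.791% of all), A-O (0.414%), H-O (0.665%) and no oxygen against oxygen (1.38%). For *nduo-4*-like itself DESeq2 made no call in any comparison. The list is not the study's set of energy genes. In the paper, every energy-generation gene called between AS and H was higher in AS. Among these it names *mev-1*, *atp-3*, *atp-5* and *sco-1*, which the list leaves out. It also names *glb-1* and *glb-14*, whereas edgeR here called no listed globin.

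T02H6.11, named after a *Caenorhabditis elegans* subunit of complex III, averaged 595 ± 144 CPM in AS and 361 ± 13.6 CPM in H (SD, n = 3 each). The AS-H log2 fold change was 0.70 ± 0.22 (SE), with an adjusted p of 0.108 by edgeR. The *glb-14*-like globin averaged 499 ± 148 CPM in AS and 232 ± 41.8 CPM in H, a log2 fold change of 1.09 ± 0.30 with an adjusted p of 0.0765. *atp-1*, the alpha subunit of the ATP synthase, averaged 463 ± 62.9 CPM in AS and 356 ± 31.4 CPM in H, with a log2 fold change of 0.36 ± 0.21 and an adjusted p of 0.344. *mdh-2*, the mitochondrial malate dehydrogenase, stood at 338 ± 42.8 CPM in AS and 332 ± 37.9 CPM in H, with a log2 fold change of 0.01 ± 0.20 and an adjusted p of 0.985. The point estimate of *nduo-4*-like, 0.18, thus lay between those of *mdh-2* and *atp-1*. Of the 17 tested list members, 12 had an AS-H change above 0 and 5 below. Below 0 were, among others, *fum-1* at -0.38 ± 0.15 (SE, adjusted p = 0.163 by edgeR), *cts-1* at -0.19 and *atp-2* at -0.03.

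Although *nduo-4*-like did not differ detectably between conditions, its differences between libraries were shared by other transcripts. Its log2 CPM went with that of *ctc-1* over the 16 libraries (Pearson r = 0.70, permutation p = 0.00267, Spearman rho = 0.70, p = 0.00357), and r was 0.72 without the 2 libraries with the most extreme *ctc-1* levels, H1 and A5. Within the 11 libraries without additional transcripts r was 0.67, and for the deviations from the condition means it was 0.81. It ran opposite to TRINITY_DN95867_c2_g1_i1_9dedup, the transcript without similarity (r = -0.77, p = 0.00051, rho = -0.78, p = 0.00067). That r was -0.69 without O1 and O5 and -0.91 within the 11 libraries. Among 10753 other transcripts of at least 10 CPM on average, *ctc-1* ranked 832 from the highest r with *nduo-4*-like. The transcript without similarity ranked 205 from the lowest. Relations of this size were thus not particular to these transcripts.

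The level also ran opposite to the library total (r = -0.66, p = 0.00473, rho = -0.62, p = 0.0114), with r = -0.61 without O4 and O5 and r = -0.81 within the 11 libraries. Within the 6 O libraries this r was -0.88, where O4, O5 and O6 were the 3 smallest libraries of all and held more *nduo-4*-like than O1, O2 and O3. The part of library size in the level of *nduo-4*-like was not tested. No such relation was seen over the 16 libraries with the number of transcripts detected (r = -0.14, p = 0.615, rho = -0.27, p = 0.314), whereas within the 11 libraries r was -0.68. After Benjamini-Hochberg adjustment over these 4 relations, the permutation p-values of r were 0.00534, 0.00204, 0.00631 and 0.615. All these values share the library and its total, and *ctc-1* and TRINITY_DN95867_c2_g1_i1_9dedup were chosen with earlier results of these data known.

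**Figure D4:**
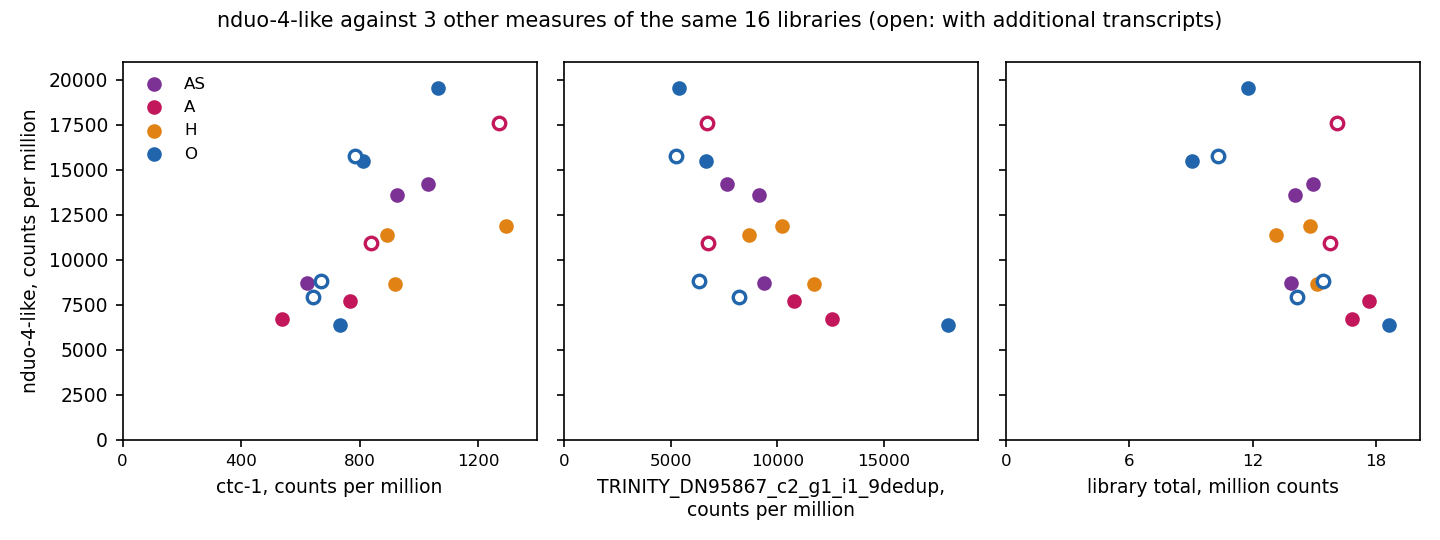
Level of *nduo-4*-like (CPM) in the 16 libraries against the level of *ctc-1* (CPM), the level of TRINITY_DN95867_c2_g1_i1_9dedup (CPM) and the library total (counts), coloured by condition, with open points for libraries with additional transcripts. It goes up with *ctc-1* (r = 0.70) and down with the other 2 (r = -0.77 and -0.66, computed on log2 CPM and the total).

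Of the 22 listed transcripts, 16 averaged at least 10 CPM, and their r with *nduo-4*-like ranged from -0.41 to 0.91, above 0 for 9 and below 0 for 7. *mdh-2* followed it most closely (r = 0.91, rho = 0.86), and T02H6.11 (r = 0.73), one *glb-1*-like globin (r = 0.75), *ctc-1* (r = 0.70) and *atp-1* (r = 0.66) came next. *atp-2*, the beta subunit of the same ATP synthase, had r = -0.36, and *fum-1*, the fumarase that acts just before malate dehydrogenase in the TCA cycle, had r = -0.41. Hence enzymes of one pathway, and even subunits of one complex, lay on both sides of 0.

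**Figure D5:**
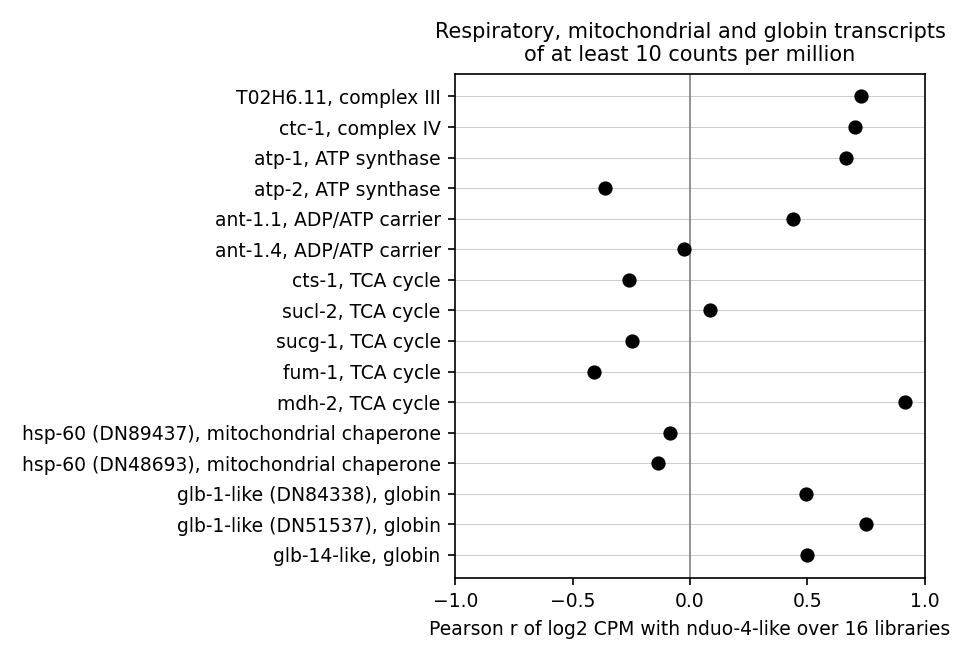
Pearson r of log2 CPM with *nduo-4*-like over the 16 libraries, for the 16 listed respiratory, mitochondrial and globin transcripts of at least 10 CPM on average, each named with its group. *mdh-2* is highest at 0.91 and *fum-1* lowest at -0.41.

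Among all 10753 other transcripts of at least 10 CPM on average, r with *nduo-4*-like had a median of -0.06 and was over 0.8 for 283 and under -0.8 for 96. The 5 most alike had r between 0.94 and 0.95 over the 16 libraries, and none is in Data S2 or in the used part of the annotation. First came TRINITY_DN90033_c0_g1_i1_9dedup (r = 0.95, rho = 0.95), with 144 to 497 CPM, and TRINITY_DN90708_c0_g1_i3_9dedup (r = 0.95, rho = 0.94), with 230 to 666 CPM. Both followed it also within the 11 libraries without additional transcripts, with r = 0.95 and 0.97. Both were named for their likeness, so these values describe them and test nothing.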

How the data were processed

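Per the labels and the study's methods, the authors depleted rRNA, sequenced, trimmed reads (Trimmomatic, FastQC), removed symbiont reads, assembled transcripts *de novo* and mapped with Bowtie2. The deposited values are RSEM 1.3.1 expected counts, not normalized for depth or length, and were rounded here. Models ran in edgeR 4.0.16 (with limma 3.58.1, R 4.3.3) and, as an alternative, DESeq2 1.42.0. Values, permutations and plots used scipy 1.17.1, numpy 2.4.6, pandas 2.3.3 and matplotlib 3.10.9 (Python 3.11.15). A transcript was kept when 3 replicates of some condition had 10 reads or more, which left 17324 for AS, A and H and 19093 for all. edgeR's quasi-likelihood test, tested on simulated data, was fitted after TMM scaling to the 10 AS, A and H libraries, or to all 16 for comparisons with O, with Benjamini-Hochberg adjustment over all transcripts. log2 CPM had a prior count of 2, and relations had 100000 permutations. Batches of 50 worms were the replicates, and nothing says that they came from separate collections, so p-values measure the spread between these batches, which may be partly technical. Libraries with additional transcripts are those above the largest gap in transcripts detected. Transcripts are named as *nduo-4*-like, listed, among the 5 most alike (the first 2 named) or the 3 next in level. The member, lists and tests were chosen with earlier results of these data known. Alternatives were other scalings, filters, tools and sets of libraries. One listed transcript is not reported here.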

Additional observations from a re-analysis of the deposited data

Results flagged for a closer look

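TRINITY_DN95867_c2_g1_i1_9dedup stood at 17987 CPM in O1, apart from the other O libraries at 5236 to 8221 CPM. It was the only 1 of 38 groups of libraries examined in which the highest or lowest library stood so far from the others. Chance gives about 5% of groups, so 1 flagged group is no more than chance would give. *nduo-4*-like was at its lowest of all libraries, 6367 CPM, in the same library. The second transcript annotated as ND4, TRINITY_DN110125_c0_g1_i1_9dedup, entered no comparison and had 162 counts in O2 and 0 in the other 15 libraries, where a count of 0 allows up to 3.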

How the results depend on the processing

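Over 177 edgeR and DESeq2 alternatives *nduo-4*-like was called in 0, with adjusted p-values from 0.0723 to 1. None of the 266 alternatives moved a result across its threshold, although 35 turned the sign of a log2 difference. The permutation alternatives for AS-H, A-H and AS-A are among the 266 but cannot reach 0.05, so their outcome was fixed and says nothing about stability. Without a filter on low counts, A-H was -0.00286 and no oxygen against oxygen 0.00678. With the term for libraries with additional transcripts, A-H was -0.56, AS-O 0.0594 and AS-A 0.74 (unadjusted p = 0.0213 by edgeR), and with only the libraries without them A-H was -0.57, AS-A 0.75 and the log2 ratio to *ctc-1* for no oxygen against oxygen 0.0734. Replicate numbers were not used to pair the samples in the main fits. The r of the deviations of 19 same-numbered pairs ran from -0.36 (A2 with O2) to 0.69 (A1 with O1) and exceeded 0.1 in 8. For A3 with O3 it was 0.65 and for A5 with O5 it was 0.63, and these libraries all held additional transcripts. Of 16 libraries, 7 were most like one of their own number, and O4 and O6 had no same-numbered library. A replicate block therefore fits O4 and O6 by terms of their own. They add nothing to its comparisons with O, although O6 was the highest of all libraries at 19550 CPM. Whether same-numbered batches shared a block was not tested. With the replicate block A-H was -0.34 and AS-A 0.50 (unadjusted p = 0.00832, adjusted p = 0.130 by edgeR). AS-O was 0.64 (unadjusted p = 0.00341, adjusted p = 0.0723 by edgeR), A-O 0.11, H-O 0.46 and no oxygen against oxygen 0.15. The block lowered the SE from 0.329 to 0.155 for AS-H, from 0.307 to 0.155 for AS-A and from 0.349 to 0.174 for AS-O. All intervals given above come from fits without it, so they include any spread between replicate numbers. With the block 804 of all transcripts were called for AS-H, against 343 without the block. Leaving out 1 replicate at a time gave -0.0192 to 0.51 for AS-A, -0.33 to 0.19 for A-H, -0.15 to 0.17 for AS-O and -0.17 to 0.0943 for no oxygen against oxygen. The log2 ratio to *ctc-1* then ranged from -0.20 to 0.0384 for AS-O and from -0.0748 to 0.0761 for no oxygen against oxygen. AS-H was positive in all 19 alternatives (0.05 to 0.37). With 3 to 6 libraries a condition, changes up to the limits of the intervals were not detectable, and library totals and additional transcripts differ within conditions. The causes of these shifts were not tested.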

Other observations

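Of the 99 other transcripts of Data S2, 9 had r over 0.8 with *nduo-4*-like across the 16 libraries, and 6 of these encode ribosomal proteins, namely *rps-23*, *rpl-21*, *rpl-9*, *rps-25*, *rps-17* and *rpl-7*. All 18 ribosomal protein transcripts of Data S2 had r above 0 (0.47 to 0.91, median 0.75), against 46 of the 81 others (-0.77 to 0.84, median 0.19). *rps-23* came highest (r = 0.91, rho = 0.89), with 320 to 751 CPM. The median r of the 18 was 0.82 within the 11 libraries without additional transcripts, and their median r with the library total was -0.48. At the other end, the catalase *ctl-1* had r = -0.59 and *pck-2-1*, a phosphoenolpyruvate carboxykinase of gluconeogenesis, r = -0.57. These groups were picked after their values were seen, the points share library and depth, and nothing was tested.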
